A study of Cyprinus carpio with 6 samples.

Results

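Genes of DNA replication and origin licensing were measured by RNA sequencing in whole common carp (Cyprinus carpio) embryos at the mid-blastula stage. They were picked out by symbol, with earlier results of these data known. Every gene with a count in any library was taken whose symbol names an MCM, ORC, GINS, RFC or RPA subunit, a subunit of DNA polymerase alpha, delta or epsilon, primase, PCNA, FEN1, CDT1, ribonucleotide reductase, a topoisomerase or TIMELESS. The pattern found 27 of 40568 genes, all of them also present in the RefSeq gene table of assembly ASM1834038v1. The embryos came from sperm that had been kept on ice in extender for 14 days (14-day-aged sperm, 3 libraries) or from sperm used fresh (fresh sperm, 3 libraries). The same males gave both kinds of sperm, and 1 female gave all the eggs. The paper mentions repeated hormone injections and stripping of the males. It does not say whether both kinds of sperm came from the same stripping. Storage and the occasion of stripping thus cannot be told apart. Which male stands behind a library, and how many embryos went into it, is not given in the sources used here. Spread between libraries, which may be technical, is thus all that the p-values measure.

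A replication origin is first bound by the origin recognition complex (ORC). CDC6 and CDT1 then load the MCM2-7 ring, which licenses the origin. The ring becomes an active helicase when CDC45 and GINS join it, and DNA polymerases copy the strands behind it, held by the sliding clamp PCNA that RFC loads. Cleaving fish and frog embryos replicate their whole genome in very short cycles, supplied with mRNA and protein that the mother stored in the egg. At the mid-blastula transition the cycles lengthen and the embryo's own genome becomes active, and in Xenopus a few initiation factors are known to become limiting at that time.

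Total counts ran from 14993459 to 15632387 in the libraries from 14-day-aged sperm and from 15102045 to 15185710 in those from fresh sperm. The blastula and maternal markers nanog, pou5f3, sox19b, ccnb1 and npm2b, the 5 genes with a count of a list of 12, all stood above 1 FPKM and summed to 2573 to 2725 FPKM in the libraries from 14-day-aged sperm and 2543 to 2778 FPKM in those from fresh sperm. Markers of differentiated organs had a count for 3 of 11 genes, those of ovarian follicle and blood for 1 of 6 and those of sperm for 3 of 9, and 0 of them reached 1 FPKM. Markers were sought by symbol, and a gene known only by a LOC number would be missed. Markers without a count under their symbol are thus not shown to be absent. On the first principal component of log2 CPM (counts scaled to library size), the third replicate from 14-day-aged sperm and that from fresh sperm scored 53.2 and 44.0, and the other 4 libraries -28.6 to -15.2. Mitochondrial genes took 2.57% of the counts in replicate 3 from 14-day-aged sperm and 1.80 to 1.89% in the others of that group, and 1.93% in replicate 3 from fresh sperm and 1.37 to 1.57% in the others.

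Together the 27 genes took 0.1689, 0.1644 and 0.1573% of the counts in embryos from 14-day-aged sperm and 0.1698, 0.1710 and 0.1606% in embryos from fresh sperm. The groups overlapped, and the lowest share of each was in replicate 3. The genes spanned a wide range of levels, given here in FPKM, fragments per kilobase of gene scaled to the size of the library. In all, 15 of them averaged above 10 FPKM over the 6 libraries and 3 below 1 FPKM, while the median of all genes with a count was 1.51 FPKM. In bulk libraries of whole embryos, fewer cells with a transcript and less of it per cell cannot be told apart.

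In embryos from 14-day-aged sperm, 0 of the 25 genes with enough counts for a test differed from embryos from fresh sperm in edgeR's quasi-likelihood test at an adjusted p under 0.05, where 0.0146% of all 27342 tested genes did (0.00731% higher and 0.00731% lower). At an unadjusted p under 0.05 the count was 0 of 25, against 3.36% of all tested genes (1.46% higher and 1.9% lower). DESeq2, given all genes with a count, called 0 of the 27 at an adjusted p under 0.05. Among the 34958 genes to which it gave an adjusted p, 0.163% were called. At an unadjusted p under 0.05 it called 0 of the 27, beside 1.82% of 40460 genes. The adjusted p in edgeR was 0.9998 for each of the 25 genes. The log2 fold changes of the 25 genes, 14-day-aged minus fresh, ran from -0.17 for gins4 to 0.39 for rfc2, with a median of -0.066 beside -0.00090 over all tested genes. They were below 0 for 16 of the 25, or 64.0%, against 50.3% of all tested genes. The median level of the 25 genes varied between libraries of a group with an SD of 0.059 in log2, close to the size of that median change. The 95% interval lay inside a 2-fold change in either direction for 24 of the 25 genes (82.9% of all tested genes) and inside a 1.5-fold change for 21 (61.6%). rfc2, at 9.33 counts per library on average, was the gene whose interval reached past 2-fold, from -0.42 to 1.20.

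**Figure D1:**
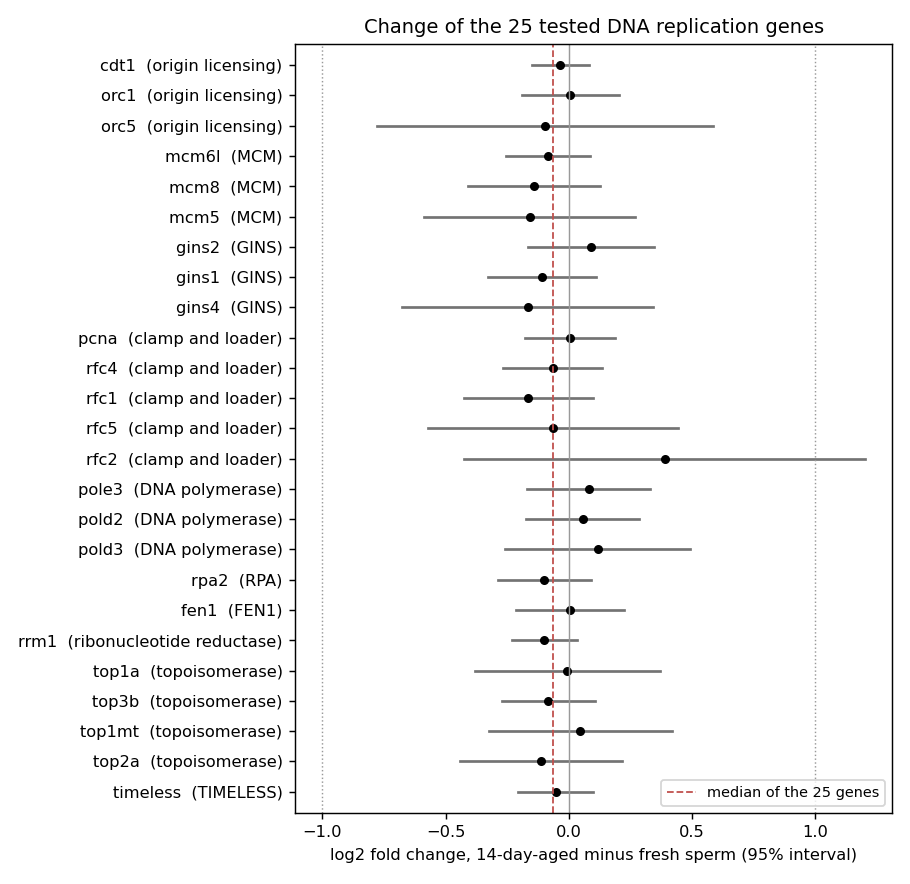
Log2 fold change of the 25 tested genes, embryos from 14-day-aged minus fresh sperm, with the 95% interval from edgeR's quasi-likelihood test (grey bars), ordered by role. Dotted lines mark a 2-fold change. All 25 intervals span 0, and that of rfc2 alone passes a dotted line.

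The gene of CDT1, the licensing factor that brings MCM2-7 to the origin, had the highest mRNA level of the 27. This gene, cdt1, lies on chromosome B7 from 36421833 to 36427008 and took 32.5% of all counts of these genes. It stood at 245.6, 245.1 and 237.5 FPKM in embryos from 14-day-aged sperm and at 246.4, 246.7 and 246.8 FPKM in embryos from fresh sperm. This placed it at percentile 99.5 of all genes with a count, 3.10 times above pcna, the next in order. In CPM scaled by TMM, edgeR's correction of library size, cdt1 was lower in all 3 libraries from 14-day-aged sperm (528, 535 and 535 CPM) than in any from fresh sperm (538, 537 and 562 CPM), by a gap smaller than the spread within either group. The log2 fold change was -0.035 (standard error 0.0485, 95% interval -0.15 to 0.080). Among the 25 tested genes 2 had groups that did not overlap, cdt1 and rrm1, both lower after storage, where 8.56% of all tested genes did not overlap (4.11% higher and 4.45% lower).

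The ORC genes differed widely in level. orc1, the ATPase subunit that marks an origin, averaged 44.4 ± 2.69 FPKM in embryos from 14-day-aged sperm and 44.1 ± 2.66 FPKM in embryos from fresh sperm (SD, n = 3 libraries each). orc5, another subunit of the complex, averaged 4.47 ± 1.74 FPKM from 14-day-aged and 4.76 ± 1.27 FPKM from fresh sperm, and its wide interval of -0.78 to 0.58 for the log2 fold change went with the largest spread of the tested genes, a coefficient of variation of 36.1% in the group from 14-day-aged sperm. orc3, on chromosome B17 from 22201483 to 22223064, encodes a core subunit. Its counts were 7.06, 6.73 and 0 in embryos from 14-day-aged sperm and 0, 10.9 and 13.9 in embryos from fresh sperm. It was at 0 in 1 library of each group and had too few counts for the test. Its counts are not whole numbers, as can arise where reads are divided with another locus, which was not examined.

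Of the MCM genes, most of which encode subunits of the replicative helicase, mcm6l had the highest level. This MCM6-like gene lies on chromosome B2 from 28073585 to 28080858. In Xenopus, separate maternal and zygotic forms of MCM6 are known. mcm6l stood at 80.2, 70.2 and 66.0 FPKM in embryos from 14-day-aged sperm and at 80.9, 77.2 and 69.5 FPKM in embryos from fresh sperm, the lowest value of each group being replicate 3. The log2 fold change was -0.084 (standard error 0.0720, 95% interval -0.25 to 0.086). The other loci of this kind were far lower. mcm5, a subunit of the same ring, averaged 1.69 ± 0.303 FPKM in embryos from 14-day-aged sperm and 1.88 ± 0.0917 FPKM in embryos from fresh sperm (SD, n = 3). mcm3, also of the ring, had 4 to 8 counts in the libraries from 14-day-aged sperm and 5 to 7 in those from fresh sperm, too few for the test. mcm8, a helicase of homologous recombination that is no part of the MCM2-7 ring, averaged 8.47 ± 0.840 FPKM from 14-day-aged and 9.27 ± 1.04 FPKM from fresh sperm (SD, n = 3).

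Common carp is allotetraploid, with subgenomes A and B, and 12 of the 27 genes lie on A chromosomes and 15 on B chromosomes. A second copy known only by a LOC number, as 24674 of the genes are, would not be found by the symbol pattern. The level of a locus such as mcm3, rfc2 or orc3 may therefore not be that of its subunit in the embryo, and such copies were not analysed here. Counts were whole numbers in every library for 16 of the genes, cdt1, orc1 and timeless among them. The other 11 had fractional counts in at least 1 library, as RSEM gives where reads are divided with another locus.

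GINS, the complex that activates the helicase, was represented by 3 genes. gins1, on chromosome B13 from 10225473 to 10230727, stood at 20.3, 20.5 and 19.6 FPKM in embryos from 14-day-aged sperm and at 23.8, 21.6 and 19.35 FPKM in embryos from fresh sperm. The values from 14-day-aged sperm lay inside the range of those from fresh sperm, and the log2 fold change was -0.11 (standard error 0.0928, 95% interval -0.33 to 0.11). gins2 was at a like level, 24.4 ± 3.02 FPKM from 14-day-aged and 22.7 ± 2.05 FPKM from fresh sperm, and gins4 at 5.06 ± 1.19 FPKM from 14-day-aged and 5.65 ± 1.19 FPKM from fresh sperm (SD, n = 3). gins4 was higher than 5 FPKM in replicates 1 and 2 of each group and in replicate 3 at 3.76 FPKM from 14-day-aged and 4.28 FPKM from fresh sperm.

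pcna, the gene of the sliding clamp on chromosome A10 from 15482642 to 15485069, was second in level. It stood at 89.0, 79.4 and 69.85 FPKM in embryos from 14-day-aged sperm and at 82.4, 80.4 and 72.8 FPKM in embryos from fresh sperm. The range from 14-day-aged sperm enclosed that from fresh sperm, with a log2 fold change of 0.0037 (standard error 0.0776, 95% interval -0.18 to 0.19). The genes of its loader RFC ran from 31.9 ± 2.58 FPKM from 14-day-aged and 33.1 ± 1.08 FPKM from fresh sperm for rfc4 to 0.707 ± 0.104 FPKM from 14-day-aged and 0.537 ± 0.135 FPKM from fresh sperm for rfc2, with rfc1, the large subunit, at 6.07 ± 0.710 FPKM from 14-day-aged and 6.77 ± 0.834 FPKM from fresh sperm (SD, n = 3). rfc5 averaged 2.51 ± 0.404 FPKM from 14-day-aged and 2.60 ± 0.418 FPKM from fresh sperm.

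The symbol pattern found 3 polymerase genes, pole3, pold2 and pold3. It found none for polymerase alpha, primase or the catalytic subunits of delta and epsilon, which may carry LOC numbers. Among the 3 genes, pole3 had the most counts. It encodes a small histone-fold subunit of DNA polymerase epsilon and lies on chromosome B5 from 9557477 to 9559218. It stood at 21.3, 22.7 and 21.8 FPKM in embryos from 14-day-aged sperm and at 23.7, 20.3 and 17.9 FPKM in embryos from fresh sperm. The log2 fold change was 0.080 (standard error 0.106, 95% interval -0.17 to 0.33). pold2 and pold3, accessory subunits of polymerase delta, averaged 11.7 ± 1.26 and 9.80 ± 0.380 FPKM in embryos from 14-day-aged sperm and 11.2 ± 0.430 and 8.97 ± 1.92 FPKM in embryos from fresh sperm (SD, n = 3).

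rpa2 encodes the middle subunit of RPA, which coats single-stranded DNA, on chromosome B16 from 5148739 to 5190004. It stood at 70.6, 64.4 and 57.25 FPKM in embryos from 14-day-aged sperm and at 69.2, 73.7 and 61.5 FPKM in embryos from fresh sperm, again lowest in replicate 3 of each group (log2 fold change -0.10, standard error 0.0800, 95% interval -0.29 to 0.088). fen1, the flap endonuclease of Okazaki fragment maturation on chromosome B24 from 9631662 to 9635927, stood at 24.3, 24.4 and 25.1 FPKM in embryos from 14-day-aged sperm and at 26.5, 25.7 and 20.9 FPKM in embryos from fresh sperm. Its fold change was near 0 (log2 fold change 0.0032, standard error 0.0928, 95% interval -0.22 to 0.22) and turned below 0 without replicate 3 from 14-day-aged sperm (-0.030) or from fresh sperm (-0.079).

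rrm1, the large subunit of ribonucleotide reductase, which makes deoxyribonucleotides, lies on chromosome A21 from 15140476 to 15148920. Its level was 23.8, 25.1 and 23.2 FPKM in embryos from 14-day-aged sperm and 25.3, 25.9 and 25.4 FPKM in embryos from fresh sperm. Every library from 14-day-aged sperm was thus below every library from fresh sperm. In TMM-scaled CPM the groups were separate, in either direction, for 8.56% of all tested genes. The log2 fold change was -0.10 (standard error 0.0556, 95% interval -0.23 to 0.031), and it ran from -0.13 to -0.077 over the alternatives tried. timeless, which encodes a fork protection factor on chromosome A11 from 3787091 to 3862399, stood at 49.0, 54.7 and 53.4 FPKM in embryos from 14-day-aged sperm and at 52.6, 55.5 and 53.9 FPKM in embryos from fresh sperm (log2 fold change -0.053, standard error 0.0649, 95% interval -0.21 to 0.10).

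The topoisomerase genes were led by top1a. This type I topoisomerase gene on chromosome B11 from 15319112 to 15332428, stood at 35.65, 30.9 and 23.3 FPKM in embryos from 14-day-aged sperm and at 31.6, 34.05 and 24.0 FPKM in embryos from fresh sperm. Replicate 3 was the lowest of both groups, and the groups averaged 29.95 ± 6.21 FPKM from 14-day-aged and 29.9 ± 5.26 FPKM from fresh sperm (SD, n = 3; log2 fold change -0.0073, standard error 0.159, 95% interval -0.38 to 0.37). The coefficient of variation of its CPM was 18.6% from 14-day-aged sperm and 15.4% from fresh sperm, where counting alone would give 2.50% from 14-day-aged and 2.52% from fresh sperm. For cdt1 it was 0.748% from 14-day-aged and 2.57% from fresh sperm, beside 1.11% and 1.10% from counting. This order of the groups depended on the scaling. In FPKM cdt1 averaged 242.7 ± 4.54 from 14-day-aged and 246.6 ± 0.176 from fresh sperm (SD, n = 3). The counts of cdt1 are whole numbers. Those of top1a are not, and the value from counting does not cover spread from dividing reads with another locus. Genes with whole counts differed among themselves. For orc1 the coefficient was 8.37% from 14-day-aged and 8.35% from fresh sperm, beside 2.165% and 2.19% from counting. For gins1 it was 1.60% from 14-day-aged and 8.78% from fresh sperm, beside 6.13% and 5.95%. The part of divided reads in the spread was not tested. top2a, top1mt and top3b averaged 4.53 ± 0.731, 5.05 ± 0.990 and 10.15 ± 0.486 FPKM in embryos from 14-day-aged sperm and 4.86 ± 0.751, 4.93 ± 0.522 and 10.65 ± 0.422 FPKM in embryos from fresh sperm (SD, n = 3).

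**Figure D2:**
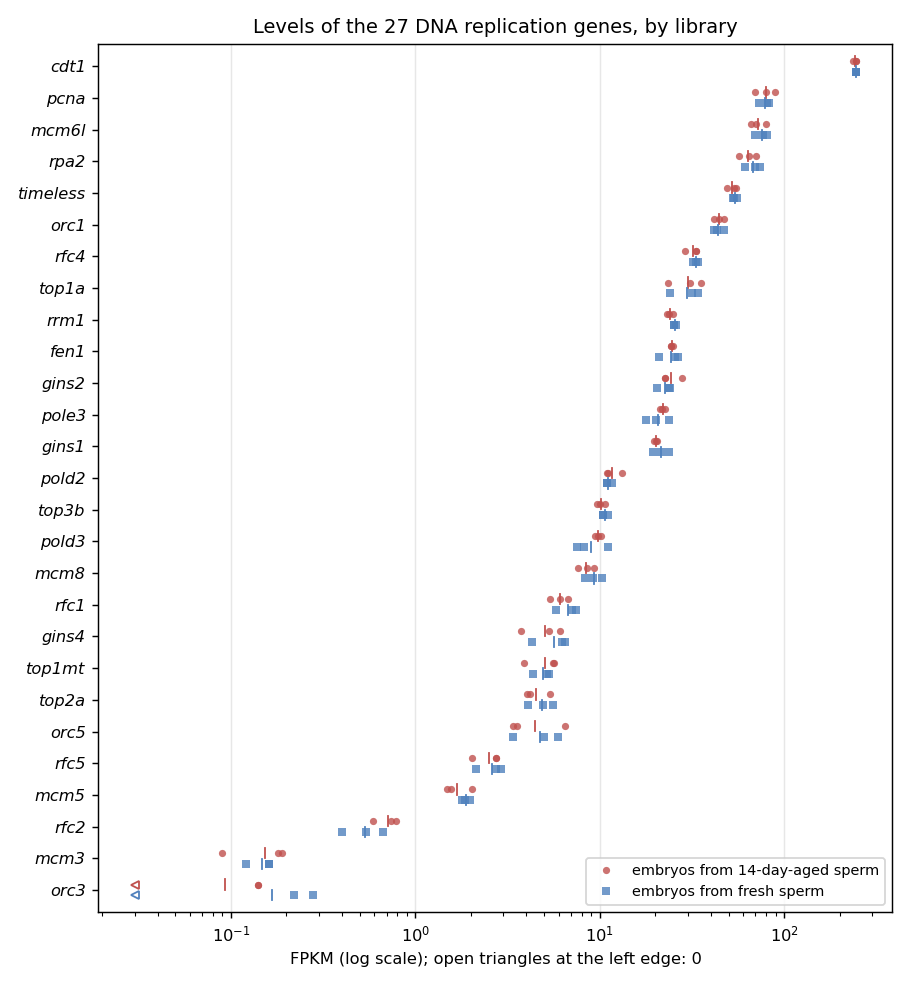
FPKM of the 27 genes in each library on a log scale, ordered by their mean over the 6 libraries. Circles are embryos from 14-day-aged sperm, squares embryos from fresh sperm, and short lines the mean of 3 libraries. Among the 25 tested genes only cdt1 and rrm1 (8.0%) have groups that do not overlap. In TMM-scaled CPM the share over all tested genes was 8.56%.

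In the order of levels, the ranges of neighbouring genes over the 6 libraries were separate in 9 of 26 steps. Leaving out replicate 3 of either group moved 4 genes to another place in the order, and leaving out any other single library moved 0. cdt1 stood clear above pcna. The ranges of pcna, mcm6l and rpa2 overlapped from one to the next, yet each was above the next in 6 of 6 libraries. rrm1 and fen1 kept their order in 3 of 6 libraries and were not told apart. Further down, gins1 stood clear above pold2 (1.82 times), mcm8 above rfc1 (1.38 times), orc5 above rfc5 (1.81 times) and mcm5 above rfc2 (2.87 times).

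For some of these genes replicates of a group differed by more than the groups did. In TMM-scaled CPM, 9 of the 25 tested genes (36.0%) were lowest in replicate 3 of both groups, against 18.7% of all tested genes. They were gins4, mcm6l, orc5, pcna, rfc1, rfc5, rpa2, top1a and top1mt. Of these, gins4, orc5 and rpa2 had whole counts in every library, and the others had fractional counts in at least 1 library. For gins4 the log2 ratio of replicate 3 to the mean of replicates 1 and 2 was -0.53 from 14-day-aged and -0.51 from fresh sperm, and for top1a -0.45 from 14-day-aged and -0.39 from fresh sperm. The CPM of orc5 was 9.11, 5.12 and 5.05 from 14-day-aged and 7.14, 8.45 and 5.05 from fresh sperm, so that from 14-day-aged sperm replicates 2 and 3 were alike and replicate 1 was high. In the other direction, cdt1, orc1, rfc4 and timeless, all with whole counts, were highest in replicate 3 of both groups, 4 of 25 or 16.0%, against 19.7% of all tested genes. Both counts depend on the scaling. In FPKM gins1 and gins2 joined the genes lowest in replicate 3 of both groups, 11 of 25 or 44.0% against 25.9% of all tested genes, and orc1 alone was highest there, 1 of 25 or 4.0% against 11.9%. For orc1 the log2 ratio in CPM was 0.18 from 14-day-aged and 0.20 from fresh sperm. For cdt1 it was 0.0099 from 14-day-aged and 0.064 from fresh sperm. In FPKM replicate 3 was the lowest library of cdt1 from 14-day-aged sperm (237.5 FPKM, against 245.6 and 245.1 FPKM). Both replicate 3 libraries also carried the larger mitochondrial share given above. The part of that share, or of divided reads, in these differences was not tested. Without both replicate 3 libraries edgeR called 0 of 25 genes at an adjusted p under 0.05, beside 0.0253% of all genes in that fit, and 0 at an unadjusted p under 0.05, beside 4.11%, and the median log2 fold change was -0.073.

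**Figure D3:**
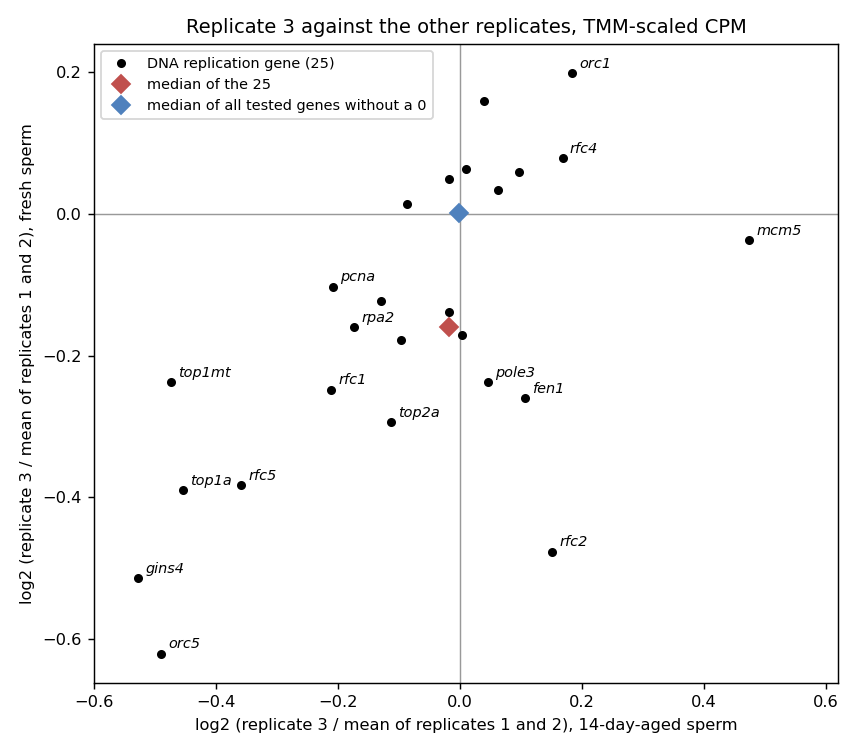
Log2 ratio of replicate 3 to the mean of replicates 1 and 2 in TMM-scaled CPM, for embryos from 14-day-aged sperm (horizontal) and from fresh sperm (vertical). Each black point is 1 of the 25 tested genes. Diamonds mark the median of the 25 genes (-0.018 from 14-day-aged, -0.16 from fresh sperm) and of 26445 tested genes with a count in every library (-0.0024 from 14-day-aged, 0.0014 from fresh sperm).

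Other genes of the same process were taken from a list of 79 symbols, of which 32 had a count and 28 enough for the test. Of the 28, 0 passed edgeR's test at an adjusted p under 0.05 and 0 at an unadjusted p under 0.05, beside 0.0146% and 3.36% of all tested genes. DESeq2 called 0 of the 32 adjusted and 0 unadjusted, beside 0.163% and 1.82%. The median log2 fold change was 0.012, with 12 genes (42.9%) below 0, beside 50.3% of all tested genes. The most highly counted was ccna1, the embryonic cyclin A gene, at 1419 ± 74.5 FPKM in embryos from 14-day-aged sperm and 1434 ± 63.2 FPKM in embryos from fresh sperm (SD, n = 3; log2 fold change -0.027, 95% interval -0.23 to 0.18). cdc6, the partner of cdt1 in loading the MCM ring, averaged 127.7 ± 13.5 FPKM from 14-day-aged and 132.9 ± 7.45 FPKM from fresh sperm, with an interval of -0.31 to 0.18. cdc7, the kinase that phosphorylates the loaded ring, averaged 117.6 ± 9.11 FPKM from 14-day-aged and 121.5 ± 4.49 FPKM from fresh sperm, with an interval of -0.25 to 0.14. All of these 3 genes were highest in replicate 3 of both groups, by log2 ratios to the mean of replicates 1 and 2 of 0.30, 0.24 and 0.18 for cdc6, cdc7 and ccna1 from 14-day-aged sperm and 0.20, 0.15 and 0.17 from fresh sperm. In TMM-scaled CPM, 9 of the 28 tested genes (32.1%) were highest there, against 19.7% of all tested genes. In the same scaling, 6 (21.4%) were lowest in replicate 3 of both groups, against 18.7%. In FPKM, 9 (32.1%) were highest and 8 (28.6%) lowest, against 11.9% and 25.9%.

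The remaining genes of this list are named after their values were seen. Ubiquitin ligase subunits that act on CDT1 were at unlike levels, with skp2 at 80.9 ± 0.980 FPKM from 14-day-aged and 79.0 ± 3.65 FPKM from fresh sperm and dtl at 1.92 ± 0.329 FPKM from 14-day-aged and 2.08 ± 0.305 FPKM from fresh sperm (SD, n = 3). recql4, which in Xenopus is among the limiting initiation factors, averaged 10.6 ± 0.734 FPKM from 14-day-aged and 10.6 ± 0.648 FPKM from fresh sperm. cdc45, a part of the active helicase, was at 0 in 1 library from fresh sperm and below 2 FPKM in all. Its counts, not whole numbers, were 25.7, 46.6 and 20.2 from 14-day-aged and 0, 25.6 and 41.4 from fresh sperm. With this spread, its interval of -1.79 to 2.65 leaves its direction undetermined. The groups did not overlap for cul4a, a scaffold of CDT1-directed ligases, higher after storage (0.643 ± 0.0862 FPKM from 14-day-aged and 0.480 ± 0.0625 FPKM from fresh sperm, 95% interval -0.14 to 1.004), or for asf1bb, a histone chaperone gene, lower after storage (0.883 ± 0.254 FPKM from 14-day-aged and 1.24 ± 0.116 FPKM from fresh sperm, 95% interval -1.17 to 0.18). These 2 of 28 genes, 7.14%, compare with 8.56% of all tested genes. The counts of cul4a were 31.5, 28 and 23 from 14-day-aged and 21, 17.3 and 22.5 from fresh sperm. The related gene cul4b, whose groups overlapped, averaged 36.1 ± 2.70 FPKM from 14-day-aged and 35.5 ± 1.96 FPKM from fresh sperm (log2 fold change 0.013). ten1, gmnc, polg2 and dbf4b had too few counts for the test.

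**Figure D4:**
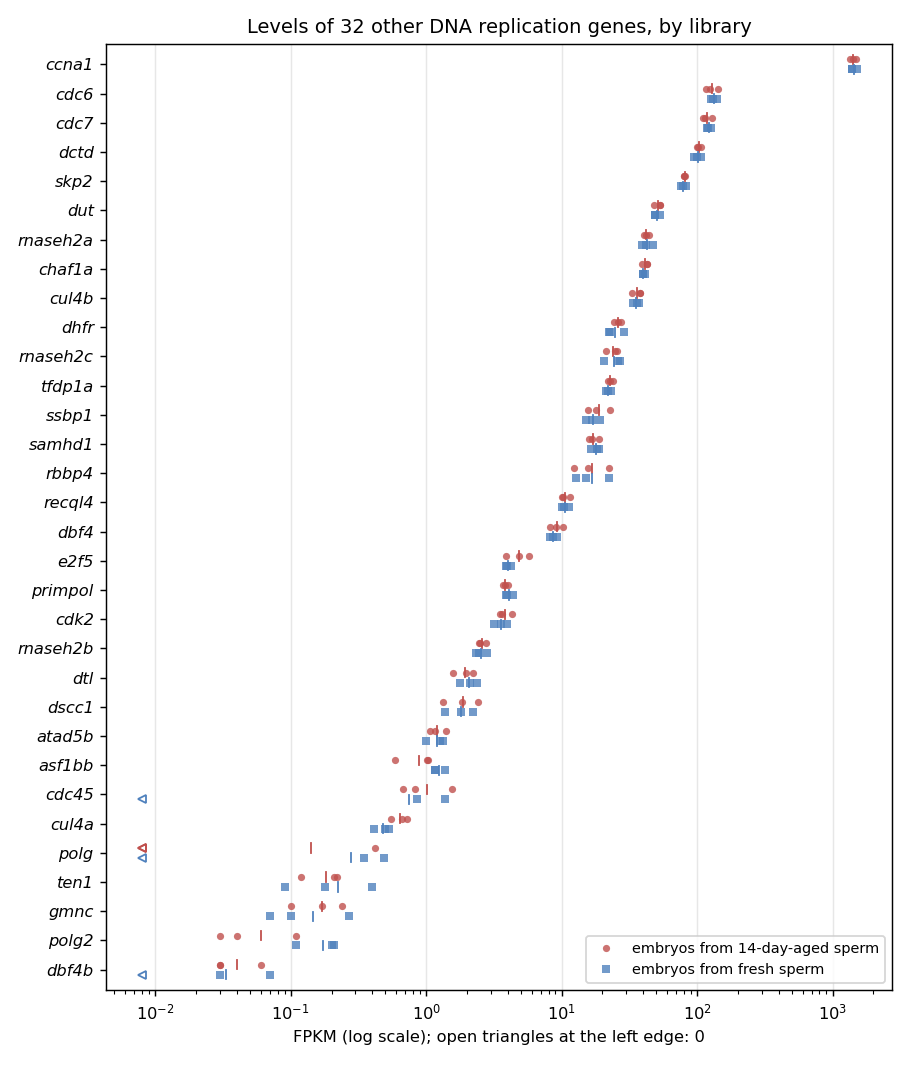
FPKM of 32 other DNA replication genes in each library on a log scale, ordered by their mean over the 6 libraries, with the same symbols for embryos from 14-day-aged and fresh sperm. Levels run from 1419 FPKM (14-day-aged) and 1434 FPKM (fresh) for ccna1 to under 0.1 FPKM for dbf4b. Among the 28 tested genes the groups do not overlap for cul4a and asf1bb (7.14%). In TMM-scaled CPM the share over all tested genes was 8.56%.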

How the data were processed

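Poly(A) RNA was sequenced on DNBSEQ. The authors used HISAT2 against assembly ASM1834038v1, StringTie and Cuffmerge to add assembled genes, and Bowtie2 to align reads for quantification. The deposited tables hold, per gene and library, estimated counts, FPKM values by the authors and effective lengths, under headers that name RSEM. Versions are not given in the sources used here. A gene that a library does not list was taken as 0. Above 5 FPKM, values matched counts divided by effective length and summed counts to within rounding. The other 18 value columns were not used. The authors' comparison table holds their p-values and log2 fold changes, from DESeq2, and was not used.

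Estimated counts were rounded and tested with edgeR 4.0.16 (TMM, filterByExpr, quasi-likelihood test) in R 4.3.3, with Benjamini-Hochberg adjustment over 27342 genes. The standard error is the log2 fold change divided by the square root of F. Fits were tested on simulated data. Coordinates come from RefSeq. Total counts were 14993459 to 15632387 per library, and intervals for the fold cover the spread between libraries.

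Members and lists were chosen with earlier results of these data known. Values per library are given for genes whose groups do not overlap, the 5 highest, the most counted of each role and those with 10 counts in 1 library and 0 in another. Of the other replication genes, the 3 most counted are named unless one has an unadjusted p under 0.05. Alternatives were DESeq2 1.42.0, RLE scaling, no filter, at least 10 counts in every library, a replicate block, single libraries left out, limma 3.58.1 on log2(FPKM + 1), annotated genes only and, added after seeing the data, both replicate 3 libraries left out and replicates ranked in FPKM. Python 3.11.15, pandas 2.3.3 and matplotlib 3.10.9 made tables and figures.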

Additional observations from a re-analysis of the deposited data

How the results depend on the processing

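The count of 0 called members and 0 called genes of the other list held in all 14 alternatives, and so did the direction of the members' median (-0.079 to -0.015 when any 1 library was dropped). These fits share most of their libraries, and the median of -0.066 was close in size to the spread between libraries of a group (SD 0.059). Over all genes the 4 calls became 57 with DESeq2, 1 with at least 10 counts in every library, 2 among annotated genes, 7 without both replicate 3 libraries (chosen after seeing the data) and 3 to 9 with single libraries left out, 9 of them without replicate 3 from fresh sperm. With the replicate number as a block 0 genes were called, and 1569 (5.74% of all tested genes) passed an unadjusted p under 0.05. Of the 25 members mcm6l alone did so (adjusted p = 0.866 in edgeR). Of the other list, polg passed an unadjusted p under 0.05 without replicate 2 from 14-day-aged sperm, beside 3.15% of all tested genes. Without replicate 3 from 14-day-aged sperm e2f5 did so, beside 4.26%. Same-numbered libraries deviated from their group means with correlations of -0.00237, 0.0375 and 0.0886, all under 0.1. The labels do not tie the numbers to males, so the main fit did not treat them as pairs. The replicate 3 libraries of both groups lay on the same side of the first principal component. Whether same-numbered libraries share a male was not tested. The median of the other list was 0.012 and lay between -0.014 and 0.055 when any 1 library was dropped, the highest without replicate 3 from fresh sperm. Fold changes near 0 turned their sign. With single libraries left out, fen1 ran from -0.079 to 0.062, pcna from -0.067 to 0.073, timeless from -0.083 to 0.0061 and top1a from -0.14 to 0.13. Without both replicate 3 libraries, fen1 was at -0.11, pole3 at -0.0099 and top1a at 0.010. The cause was not tested. rfc2, mcm3 and orc3, averaging under 10 counts per library, are too shallow to place their fold change closely.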
